A study of Mus musculus with 12 samples.

Results

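The genes described here are 8 bromodomain genes that do not encode SWI/SNF subunits, Brd2, Brd3, Brd8, Brpf1, Crebbp, Ep300, Kat2a and Kat2b, together with Hexim1. They were taken by gene symbol, whatever their values, and are 9 of the 16288 genes listed in at least 1 library. RNA was measured by sequencing in mouse C2C12 cells, an immortalized myoblast line that fuses into multinucleated muscle cells when serum is reduced. The 12 libraries form 6 groups of 2, which the labels describe as biological duplicates with the letters A and B. Proliferating cells are labelled GM, and cells harvested 24 h or 48 h after the switch to a low horse serum medium with insulin are labelled DM 24h and DM 48h. At each stage the cells received either DMSO, the vehicle, or 50 uM PFI-3, a bromodomain ligand. Exposure to DMSO or PFI-3 started 12 h ahead of the GM harvest or of the medium switch, and the differentiation medium was given fresh agent every 24 h. Exposure was therefore longer at each later stage. Where the PFI-3 effect differs between stages, stage and length of exposure cannot be told apart. All groups are of this 1 cell line, without a genetic change, and nothing in the labels says that A and B were handled together across groups.

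Bromodomains are protein modules that bind acetylated lysines, mostly on histone tails. PFI-3 was developed against the bromodomains of the SWI/SNF proteins SMARCA2, SMARCA4 and PBRM1, and none of the genes described here encodes one of these. BRD2 and BRD3 are BET proteins, readers of acetylated chromatin that assist transcription. CBP (gene Crebbp), p300 (Ep300), GCN5 (Kat2a) and PCAF (Kat2b) carry both a bromodomain and an acetyltransferase domain. In muscle, p300 and PCAF are known coactivators of the myogenic factor MyoD. BRD8 is a subunit of the TIP60/p400 acetyltransferase complex, and BRPF1 is a scaffold of the MOZ/MORF acetyltransferases. HEXIM1 has no bromodomain. It holds the elongation kinase P-TEFb inactive together with 7SK RNA, and its mRNA is a widely used marker of BET inhibition, where it rises.

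Each of the 9 genes was listed in all 12 libraries, with expected counts from 237 (Kat2b) to 6927 (Brd2) in libraries of 12576374 to 13658352 counts, and all 9 passed the low-count filter. Only Brd8 had fractional counts, in 4 libraries, which arise when a read is shared with another gene. Strandedness is not given in the sources used here, so reads of overlapping antisense transcripts could not be told apart. Duplicates were farther apart in GM than in DM: among genes averaging 50 counts or more in a group, the log2 ratio of B to A had an SD of 0.33 (GM, DMSO) and 0.31 (GM, PFI-3), against 0.14 to 0.16 in the 4 DM groups. No pair of libraries held identical counts. The 7 myoblast and muscle markers examined (Myod1, Myf5, Des, Myog, Myh3, Ckm and Acta1) were present in every group. Their summed level went from 629 and 686 CPM (the count scaled to a common library total adjusted by TMM) in GM to 2990 and 2969 at DM 24h, then to 16550 and 16410 at DM 48h, in DMSO (libraries A and B). With PFI-3 the sums were 436 and 571 in GM, then 1727 in both DM 24h libraries, then 11760 and 11360 at DM 48h. In bulk RNA, fewer differentiated cells and less RNA per cell cannot be told apart. The sums moved with stage and with PFI-3, as several of the genes below did, and their part in those differences was not tested. Markers of adipocytes, osteoblasts, endothelium, leukocytes and epithelium never exceeded 17 counts in a library.

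Per transcript length, Brd2 stood above the other 8 genes in all 6 groups. In GM with DMSO the mean FPKM (a read level scaled to transcript length and to the library total, as deposited) was 94.0 for Brd2, 61.3 for Kat2a, 22.7 for Ep300 and 20.7 for Brd3. Brd8 (15.4) and Hexim1 (14.8) came next and overlapped between duplicates, followed by Brpf1 (13.4), Crebbp (12.0) and Kat2b (4.36). At DM 48h with DMSO the FPKM order had become Brd2 (58.0), Hexim1 (36.1), Brd3 (34.4), Kat2a (27.3), Ep300 (21.9), Crebbp (15.2), Brd8 (11.3), Brpf1 (10.6) and Kat2b (8.18), where only Brd8 and Brpf1 overlapped as neighbours. Hexim1 thus moved from the sixth to the second place and Kat2a from the second to the fourth. Over the 12 libraries the highest FPKM was 2.80 times the lowest for Kat2b, 2.66 times for Hexim1 and 2.45 times for Kat2a, but 1.31 times for Brpf1 and 1.35 times for Ep300.

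The first comparison asks how these genes moved with differentiation in DMSO cells. At DM 24h against GM, 7 of the 9 passed the threshold (edgeR quasi-likelihood test, adjusted p below 0.05), 5 higher and 2 lower. Over all 12545 genes tested 60.6% passed, 30.6% higher and 30.0% lower. At DM 48h against GM, 8 of the 9 passed, 4 in each direction, where 73.1% of all genes did (37.2% higher, 35.9% lower). From DM 24h to DM 48h, 5 of the 9 passed, 2 higher and 3 lower, against 48.1% of all genes (24.2% higher, 23.9% lower). Since most or nearly as many of all genes passed too, passing does not mark these 9 genes out. The median log2 fold change of the 9 genes was 0.27, -0.04 and -0.16 in the 3 comparisons, and that of all genes was 0.02, 0.03 and 0.01.

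**Figure D1:**
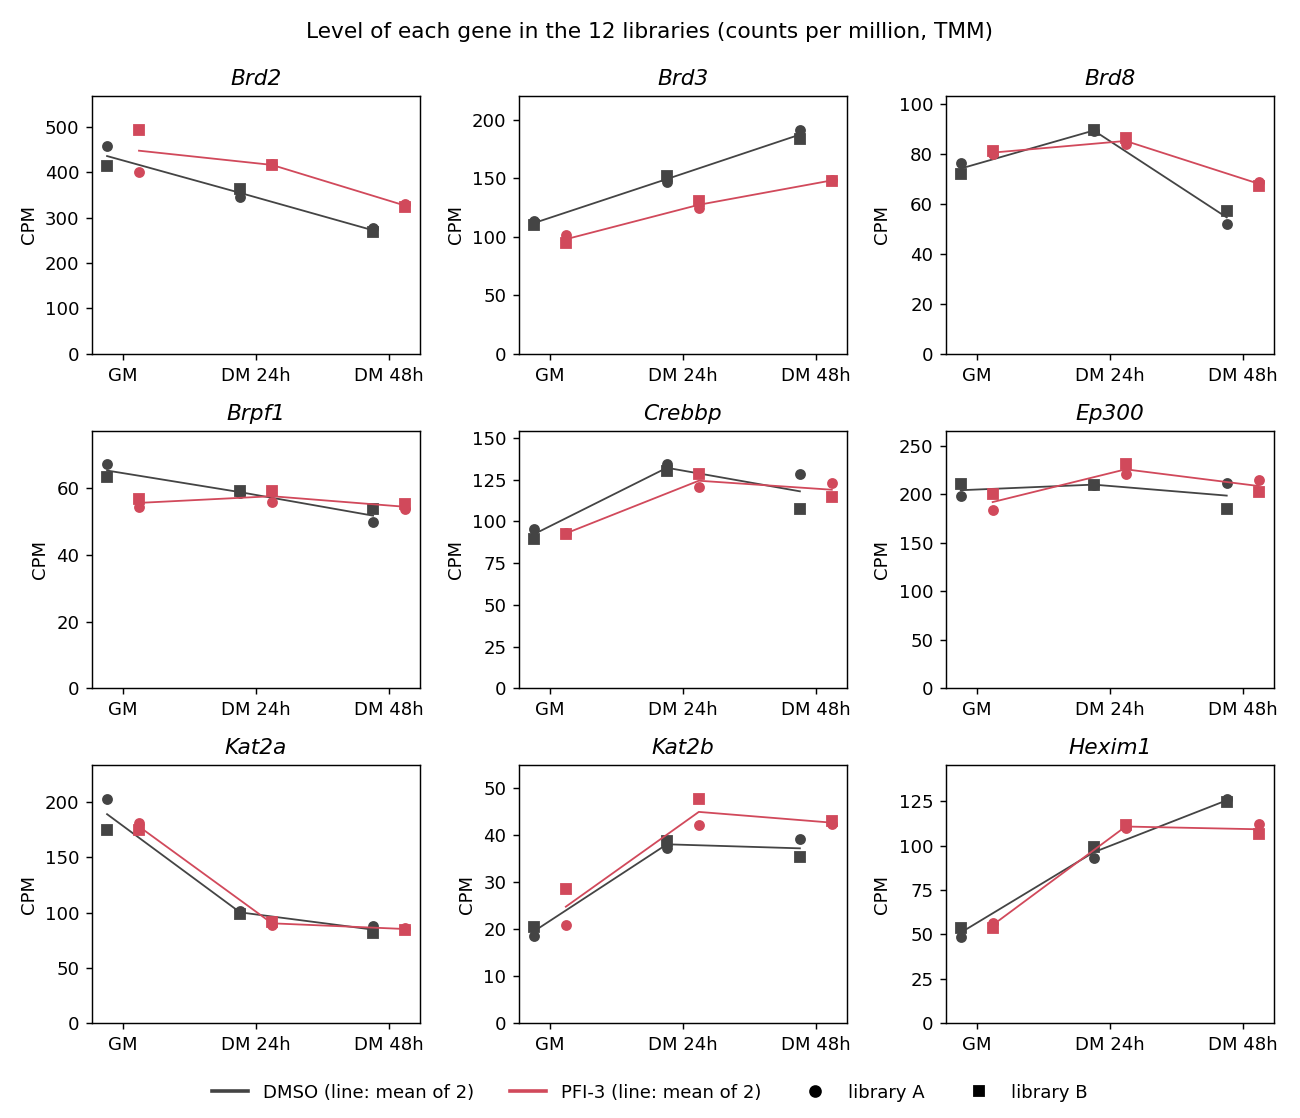
Level of each gene in CPM (vertical axis from 0) by stage, in DMSO (dark) and PFI-3 (red); each point is 1 library (circle A, square B) and lines join the group means of 2. Brd2 and Kat2a fell and Brd3, Kat2b and Hexim1 rose from GM to DM 48h in DMSO. At DM 48h the PFI-3 libraries of Brd2, Brd3, Brd8, Kat2b and Hexim1 lie apart from the DMSO libraries. The share of all genes that lie apart in this way was not computed.

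The BET genes Brd2 and Brd3 went opposite ways. Brd2 (chr17:34112019-34122814, mm10) was at 458.1 and 413.0 CPM in GM (libraries A and B), followed by 345.1 and 363.9 at DM 24h, then 276.7 and 267.4 at DM 48h. Its groups did not overlap, and each stage was below the previous one. Against GM the log2 fold change to DM 24h was -0.30 ± 0.09 (SE; adjusted p = 0.0121), and that to DM 48h was -0.68 ± 0.09 (adjusted p = 2.12e-05). The DM 24h call was lost without GM library A (adjusted p = 0.0622) or without DM 24h library A (adjusted p = 0.0877). Brd3 (chr2:27445576-27507657) was at 113.7 and 109.7 CPM in GM, followed by 146.4 and 152.2 at DM 24h, then 191.4 and 183.1 at DM 48h. It rose at each step without overlap, by 0.42 ± 0.06 on the log2 scale to DM 24h (adjusted p = 0.000136) and by 0.74 ± 0.06 to DM 48h (adjusted p = 4.7e-07).

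The GCN5/PCAF pair also divided. Kat2a (chr11:100704746-100712485), which encodes the acetyltransferase of the SAGA and ATAC coactivator complexes in many cell types, was at 203.2 and 175.3 CPM in GM, followed by 101.9 and 98.6 at DM 24h, then 87.8 and 81.4 at DM 48h. All DM libraries lay far below both GM libraries, and the change to DM 48h was a log2 fold change of -1.16 ± 0.08 (adjusted p = 4.54e-08). The smaller step from DM 24h to DM 48h, -0.24 ± 0.08 (adjusted p = 0.0226), was lost without DM 24h library A, DM 24h library B or DM 48h library B (adjusted p of 0.117, 0.0702 and 0.18) and with DESeq2 (0.0647). Kat2b (chr17:53566774-53672721), encoding PCAF, was the least abundant of the 9 and was at 18.6 and 20.4 CPM in GM, followed by 37.2 and 38.9 at DM 24h, then 39.1 and 35.3 at DM 48h. It rose to DM 24h (log2 fold change 0.96 ± 0.13, adjusted p = 5.45e-05), and both DM groups overlapped (-0.03 ± 0.12 from DM 24h to DM 48h, adjusted p = 0.853).

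Of the CBP/p300 pair, Crebbp rose and Ep300 showed no call. Crebbp (chr16:4081334-4213957) was at 95.4 and 89.3 CPM in GM, followed by 134.2 and 130 at DM 24h, then 128.3 and 107.7 at DM 48h. Both later stages lay above GM, with log2 fold changes of 0.52 ± 0.08 (adjusted p = 0.000221) and 0.35 ± 0.08 (adjusted p = 0.0024), while the DM 48h duplicates were wide apart. Ep300 (chr15:81586209-81652077) was at 197.6 and 210.4 CPM in GM, followed by 209.8 and 209.7 at DM 24h, then 211.9 and 185.0 at DM 48h. Its 3 groups overlapped, and its log2 fold changes against GM were 0.04 ± 0.08 and -0.04 ± 0.08 (adjusted p of 0.672 and 0.655).

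Brd8 was the only one of the 9 called in opposite directions at DM 24h and DM 48h against GM. Its level was 76.3 and 72.1 CPM in GM, followed by 89.2 and 89.8 at DM 24h, then 52.0 and 57.3 at DM 48h. It therefore rose by 0.27 ± 0.07 on the log2 scale to DM 24h (adjusted p = 0.00461) and then fell by 0.71 ± 0.07 to DM 48h (adjusted p = 4.78e-06). Brpf1 (chr6:113306863-113324862) was at 67.3 and 63.5 CPM in GM, followed by 58.5 and 59.3 at DM 24h, then 49.9 and 53.8 at DM 48h. Each stage lay below the one before without overlap, and only the change from GM to DM 48h passed (-0.33 ± 0.07, adjusted p = 0.0011).

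Hexim1 had the largest rise of the 9 from GM to DM 48h, while at DM 24h that of Kat2b was similar (log2 fold changes of 0.92 for Hexim1 and 0.96 for Kat2b). Hexim1 (chr11:103116325-103119725) was at 48.6 and 53.4 CPM in GM, followed by 93.3 and 99.4 at DM 24h, then 126.5 and 124.8 at DM 48h. No group overlapped another, and against GM the log2 fold change to DM 24h was 0.92 ± 0.07 (adjusted p = 5.04e-07) and that to DM 48h 1.30 ± 0.07 (adjusted p = 7.48e-09). This 2.46-fold difference between stages in vehicle-treated cells is the range against which the PFI-3 values of Hexim1 below are set.

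**Figure D2:**
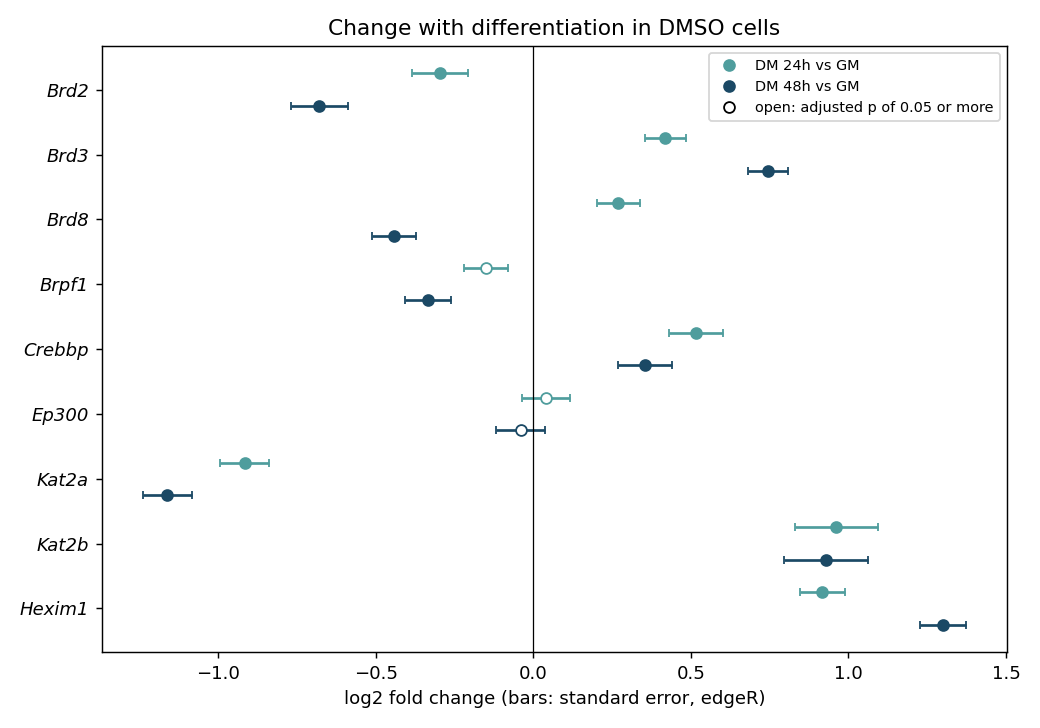
Log2 fold change of each gene from GM to DM 24h (light) and from GM to DM 48h (dark) in DMSO cells, with the standard error from edgeR (n = 2 libraries per group); open points did not pass the threshold. Values run from -1.16 (Kat2a) to 1.30 (Hexim1) at DM 48h. Brd8 changes side between DM 24h and DM 48h, as does Ep300 with open points (0.04 and -0.04).

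Because paralogues moved apart, their ratios within a library changed (a description, since both parts enter the tests above). The FPKM ratio of Brd2 to Brd3 was 4.70 and 4.38 in GM, followed by 2.73 and 2.77 at DM 24h, then 1.68 and 1.69 at DM 48h in DMSO. With PFI-3 it was 4.62 and 6.11 in GM, followed by 3.91 and 3.71 at DM 24h, then 2.58 and 2.54 at DM 48h. The PFI-3 ratios were above the DMSO ratios in both DM stages, and the 2.54 to 2.58 of PFI-3 at DM 48h came near the 2.73 to 2.77 of DMSO at DM 24h. The ratio of Kat2a to Kat2b dropped from 15.7 and 12.7 in GM to 3.25 and 3.42 at DM 48h in DMSO, and from 12.7 and 8.93 to 2.97 and 2.94 with PFI-3. That of Ep300 to Crebbp stayed between 1.34 and 2.02 in all 12 libraries.

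**Figure D3:**
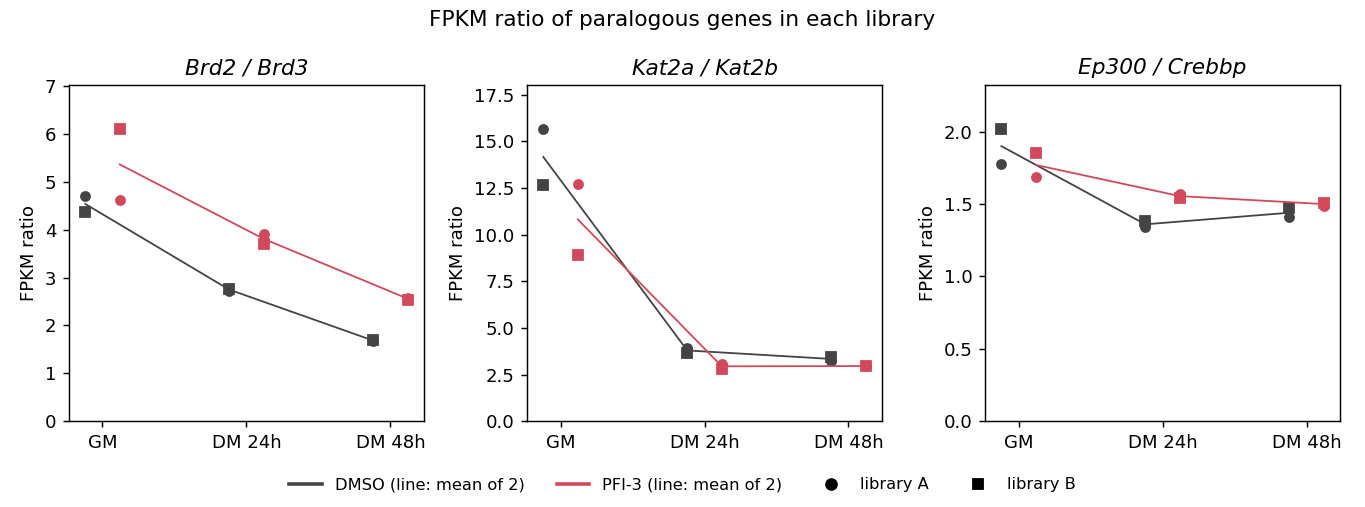
FPKM ratio of 3 paralogue pairs in each library (vertical axes from 0) by stage, in DMSO (dark) and PFI-3 (red); lines join the means of 2 libraries. The ratio of Brd2 to Brd3 goes from 4.70 and 4.38 in GM to 1.68 and 1.69 at DM 48h in DMSO, and the PFI-3 points lie higher at DM 24h and DM 48h.

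The 250 bases before the annotated start are shown for Hexim1, the gene with the largest rise to DM 48h (chr11:103116075-103116324, plus strand), from RefSeq on GRCm38.p6. Capitals mark each match to the E-box CANNTG, the letters that MyoD and related factors bind, searched on both strands (the pattern is its own reverse complement).
Hexim1: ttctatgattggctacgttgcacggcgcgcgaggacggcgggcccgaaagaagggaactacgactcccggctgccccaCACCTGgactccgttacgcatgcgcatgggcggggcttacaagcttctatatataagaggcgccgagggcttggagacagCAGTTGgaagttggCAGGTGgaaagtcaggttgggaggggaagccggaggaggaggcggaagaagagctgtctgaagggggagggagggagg
Hexim1 held 3 matches, which begin 172, 92 and 78 bases before the start. Of 32851 promoter windows of this length, 66.2% hold at least 1 CANNTG, so a match is common. The GC box GGGCGG was in the Hexim1 window and in 32.7% of all windows. Brd8 was not included in this search. The other 8 of the 9 genes had 11 windows, of which 5 held CANNTG and 6 held GGGCGG.

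The second comparison asks what PFI-3 did to these genes at each stage. In GM, none of the 9 passed in edgeR, where 11.6% of all genes did. The unadjusted p was under 0.05 for 3 of them. DESeq2, limma voom and limma on FPKM also called 0 of the 9. Over all genes these fits called 8.91%, 2.84% and 11.1% to 11.2%. At DM 24h, 1 of the 9 passed, against 23.6% of all genes. At DM 48h, 4 of the 9 passed, 2 higher and 2 lower, against 27.4% of all genes (13.4% higher, 14.0% lower). The log2 fold changes of the 9 genes ran from -0.34 (Brd3 at DM 48h) to 0.34 (Kat2b in GM), a narrower range than the -1.16 to 1.30 between stages in DMSO. Among all genes called, 47.0%, 51.7% and 48.9% were higher with PFI-3 in GM, DM 24h and DM 48h, but 75.3%, 62.0% and 65.3% on the log2(FPKM + 1) scale.

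Brd3 was lower in every PFI-3 library than in both DMSO libraries of its stage and was called at both DM stages. In GM its PFI-3 libraries were at 101.3 and 94.5 CPM, below both DMSO libraries (113.7 and 109.7), but the difference of -0.19 ± 0.07 did not pass (adjusted p = 0.0799). At DM 24h the levels were 124.3 and 130.3 CPM with PFI-3 and 146.4 and 152.2 with DMSO, a log2 fold change of -0.23 ± 0.06 (adjusted p = 0.0222). That call was lost when any 1 of the 4 DM 24h libraries was left out (adjusted p of 0.0675 to 0.165) and on the log2(FPKM + 1) scale (adjusted p = 0.0597). At DM 48h the levels were 148.4 and 147.9 CPM against 191.4 and 183.1, a log2 fold change of -0.34 ± 0.06 (adjusted p = 0.00198), and this call held in all 14 alternatives run (adjusted p of 3.9e-12 to 0.0284).

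Brd2 differed the other way. Its PFI-3 libraries were at 401.2 and 493.5 CPM in GM and overlapped the DMSO libraries. At DM 24h they were at 417.2 and 414.9 against 345.1 and 363.9, without overlap (0.23 ± 0.09, adjusted p = 0.0802). At DM 48h they were at 330.0 and 323.1 against 276.7 and 267.4, a log2 fold change of 0.26 ± 0.09 that passed narrowly (adjusted p = 0.0467). The DM 48h call held in 6 of 14 alternatives. It was lost, among others, without any 1 of the 4 DM 48h libraries (adjusted p of 0.131 to 0.222), with DESeq2 (0.0513), with size factors in place of TMM (0.0559) and with a filter at a mean of 10 counts (0.0506). Fitting only the 4 libraries of a stage gave an adjusted p of 1.67e-06 for DM 24h and of 3.83e-05 for DM 48h. The mean transcript length that the authors' tables give for Brd2 also separated the treatments, at 4555.21 and 4564.13 bases with DMSO against 4541.80 and 4531.36 with PFI-3 at DM 24h, and 4566.63 and 4561.81 against 4554.84 and 4545.13 at DM 48h. The length was apart in GM too, where the levels overlapped, at 4530.63 and 4537.73 bases with DMSO against 4526.5 and 4523.5 with PFI-3. This length averages over the 2 transcripts listed for Brd2. Such a separation was not particular to Brd2. It was also seen for Kat2a at both DM stages, for Brd8 and Kat2b at DM 24h and for Brd3 at DM 48h. The share of all genes that show it was not computed.

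Hexim1 was on opposite sides of DMSO at the 2 DM stages. In GM its PFI-3 libraries were at 56.6 and 53.9 CPM against 48.6 and 53.4 (0.12 ± 0.07, adjusted p = 0.331). At DM 24h they were at 110.0 and 111.7 against 93.3 and 99.4, higher in both libraries but short of the threshold (0.20 ± 0.07, adjusted p = 0.053). This DM 24h difference was called in 5 of 14 alternatives, among them only those 4 libraries (adjusted p = 0.00104), limma voom (0.00336) and the log2(FPKM + 1) scale (0.0381). At DM 48h they were at 112.1 and 106.5 against 126.5 and 124.8, lower by a log2 fold change of -0.20 ± 0.07 (adjusted p = 0.0483). The DM 48h call held in 5 of 14 alternatives. It was lost, among others, without any 1 of the 4 libraries (adjusted p of 0.101 to 0.244), with DESeq2 (0.119), without the low-count filter (0.0732) and on the log2(FPKM + 1) scale, where the difference was -0.11 (adjusted p = 0.287). The difference between both stages was itself called: the PFI-3 effect at DM 48h minus that at DM 24h was -0.40 ± 0.10 (adjusted p = 0.019). This call was lost without either DM 24h PFI-3 library (adjusted p of 0.0684 and 0.0767), either DM 48h DMSO library (0.0714 and 0.0579), DM 24h DMSO library A (0.0982) or DM 48h PFI-3 library B (0.0891), and on the log2(FPKM + 1) scale (0.0503).

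Brd8 was higher with PFI-3 at DM 48h, at 68.9 and 67.4 CPM against 52.0 and 57.3, without overlap. The log2 fold change was 0.32 ± 0.07 (adjusted p = 0.00534) and fell short of the threshold only without DMSO library A of DM 48h (0.25, adjusted p = 0.0737) among 14 alternatives. At DM 24h the PFI-3 libraries were at 84.2 and 86.3 CPM against 89.2 and 89.8 (-0.07 ± 0.07, adjusted p = 0.501). The effect at DM 48h minus that at DM 24h was 0.39 ± 0.10 (adjusted p = 0.0234), and this call held only without DM 48h DMSO library B when the 8 libraries were left out in turn (adjusted p of 0.0673 to 0.124 without any of the other 7).

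The acetyltransferases and Brpf1 gave no call at any single stage in the 12-library edgeR fit, though 4 of these 5 genes were called in some alternatives. Kat2b was higher in every PFI-3 library than in both DMSO libraries of its stage, at 21.0 and 28.6 CPM in GM, followed by 42.2 and 47.7 at DM 24h, then 42.4 and 42.9 at DM 48h, with log2 fold changes of 0.34 ± 0.14, 0.24 ± 0.12 and 0.20 ± 0.12 (adjusted p of 0.122, 0.182 and 0.269). It was called in 1, 3 and 2 of 14 alternatives, in GM without PFI-3 library A (0.55, adjusted p = 0.0139). Brpf1 in GM was at 54.5 and 56.9 CPM with PFI-3 against 67.3 and 63.5 (-0.23 ± 0.07, adjusted p = 0.055), and was called only without GM DMSO library B (adjusted p = 0.0303). Kat2a was at 88.9 and 91.8 CPM against 101.9 and 98.6 at DM 24h (-0.15 ± 0.08, adjusted p = 0.19; 0.0225 with only those 4 libraries, 0.0326 with limma voom), and its DM 48h libraries overlapped. Log2 fold changes over the 3 stages ran from -0.09 to 0.01 for Crebbp and from -0.09 to 0.10 for Ep300, each with a standard error of about 0.08. Ep300 at DM 24h was called with only those 4 libraries (0.11, adjusted p = 0.0294).

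**Figure D4:**
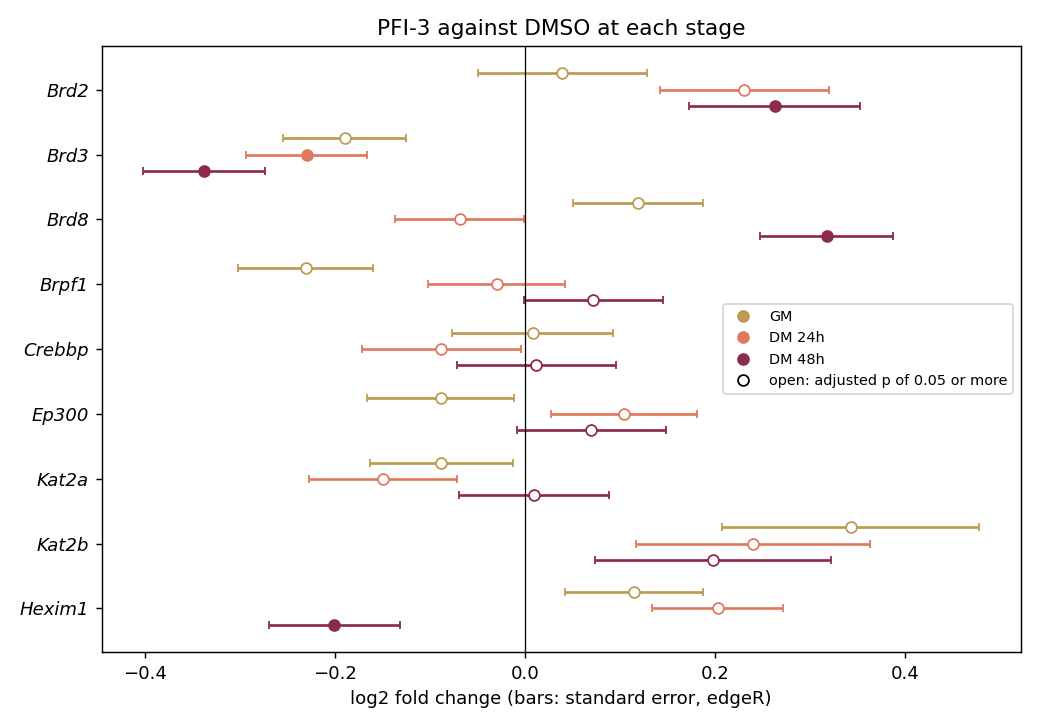
Log2 fold change of each gene with PFI-3 against DMSO at each of the 3 stages, with the standard error from edgeR (n = 2 libraries per group); filled points passed the threshold. Brd3 is below 0 at all 3 stages, and all points lie between -0.34 and 0.34. Brd8 and Hexim1 lie on opposite sides of 0 at DM 24h and DM 48h, as do Brpf1, Crebbp and Kat2a, whose points are open.

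Fitting PFI-3 as 1 effect over the 3 stages called 2 of the 9 genes, against 24.1% of all genes. Brd3 was lower on average (-0.25 ± 0.04, adjusted p = 0.00163) and Kat2b higher (0.26 ± 0.08, adjusted p = 0.0272). The Kat2b call was lost without GM DMSO library A, DM 24h DMSO library A, DM 24h PFI-3 library B or DM 48h DMSO library B (adjusted p of 0.051, 0.0602, 0.0717 and 0.0584). Brd2 averaged 0.18 ± 0.06 (adjusted p = 0.0541). The change of the PFI-3 effect from DM 24h to DM 48h was called for 2 of the 9, Brd8 and Hexim1, against 12.1% of all genes. From GM to DM 24h it was called for 0 (unadjusted p under 0.05 for 0), against 3.37% of all genes, and from GM to DM 48h for 0 (2 unadjusted), against 14.5%. DESeq2, limma voom and limma on FPKM also called 0 of the 9 in the latter 2 comparisons. Over all genes these fits called 3.67%, 2.74% and 3.34% to 4.74% from GM to DM 24h. From GM to DM 48h they called 11.5%, 10.8% and 14.6% to 17.1%.

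At DM 48h, the PFI-3 levels of the called genes Brd2, Brd8 and Hexim1 lay between the DMSO levels of DM 24h and DM 48h. Brd3, also called, lay just below its DMSO level of DM 24h. In mean CPM, Brd2 was at 326.6 with PFI-3 and at 354.5 and 272.0 with DMSO at DM 24h and DM 48h. Brd3 was at 148.2 against 149.3 and 187.2, Brd8 at 68.2 against 89.5 and 54.7, and Hexim1 at 109.3 against 96.3 and 125.7. The DM 48h DMSO libraries enter both differences, so the likeness of their directions is not independent. The muscle marker sums were likewise between the DMSO values of both stages (11760 and 11360 CPM, against 2990 and 2969, then 16550 and 16410). Their part was not tested.

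Genes of the same complexes and pathways were examined as lists. Of 32 other bromodomain genes, 31 could be tested. With PFI-3, GM had 2 higher and 1 lower, DM 24h had 3 higher and 1 lower, and DM 48h had 7 higher and 2 lower. Over all genes 11.6%, 23.6% and 27.4% were called at these stages (13.4% higher and 14.0% lower at DM 48h). The medians of the list were -0.01, -0.02 and 0.09, against -0.01, -0.001 and 0.001 over all genes. At DM 48h the smallest adjusted p belonged to Atad2, a chromatin ATPase gene known to be high in dividing cells (1.24 ± 0.07, adjusted p = 4.12e-07), followed by Brpf3, a paralogue of Brpf1 (0.60 ± 0.08, adjusted p = 0.000239), Baz1b (0.45 ± 0.08) and the PBAF subunit gene Brd7 (-0.29 ± 0.06). In DMSO, Atad2 fell by 2.28 on the log2 scale from GM to DM 48h.

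Of 22 genes of P-TEFb, the 7SK particle and elongation factors, 21 could be tested. In DMSO, 4 rose and 9 fell from GM to DM 24h, and 6 rose and 10 fell to DM 48h (medians -0.14 and -0.06, against 0.02 and 0.03 over all genes). Over all genes 30.6% rose and 30.0% fell to DM 24h, and 37.2% rose and 35.9% fell to DM 48h. Hexim2, the paralogue of Hexim1, rose by 1.60 ± 0.26 to DM 24h and by 2.35 ± 0.24 to DM 48h (adjusted p of 0.00018 and 2.4e-06). Cdk9, the P-TEFb kinase, changed by -0.59 ± 0.09 to DM 24h (adjusted p = 0.000113), and Larp7, a 7SK-binding protein, by -1.04 ± 0.10 to DM 48h (adjusted p = 1.5e-06). Ell2, an elongation factor, fell by 1.19 to DM 24h (adjusted p = 2.65e-06). With PFI-3, GM had 0 higher and 2 lower, DM 24h had 3 higher and 0 lower, and DM 48h had 2 higher and 3 lower (medians -0.13, -0.002 and 0.02). The shares of all genes called were 11.6%, 23.6% and 27.4%. At DM 48h Hexim2 was lower, as Hexim1 was (-0.59 ± 0.20, adjusted p = 0.0494; named after its value was seen). Hexim2 was low, at 5.41 and 6.71 CPM with PFI-3 against 8.78 and 9.49 with DMSO. Both calls lay near the threshold (adjusted p = 0.0483 for Hexim1), and that of Hexim1 was lost in several alternatives, as given above. Mepce, the 7SK capping enzyme, was higher (0.25 ± 0.08, adjusted p = 0.0405).

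Genes reported to respond to BET inhibitors were Zcchc24, Zmynd8 and Serpini1, which rise, and Myc, which falls. Zmynd8 is also in the list of other bromodomain genes. Serpini1 was too low to test. None of the other 3 was called with PFI-3 in GM or at DM 24h by edgeR, where 11.6% and 23.6% of all genes were. At DM 48h Zmynd8 (-0.27 ± 0.07, adjusted p = 0.0176) and Zcchc24 (-0.25 ± 0.07, adjusted p = 0.0182), both reported to rise, were lower, as were 14.0% of all genes. Myc, reported to fall, was at -0.26, -0.27 and -0.25 in GM, DM 24h and DM 48h and was not called. Whether PFI-3 acted on BET proteins was not tested.

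Partners of the acetyltransferases were taken as 4 lists, and in 3 of them more genes fell than rose from GM to DM 48h (over all genes 37.2% rose and 35.9% fell). From GM to DM 48h in DMSO, 1 of 22 SAGA and ATAC partner genes of Kat2a and Kat2b rose and 11 fell, among them Taf5l (-1.10 ± 0.09) and Taf12 (-1.08 ± 0.10). Of 9 genes of the MOZ/MORF and HBO1 complexes (the list set beside Brpf1), 2 rose and 6 fell, led by Jade3 (-1.74 ± 0.12) and Ing4 (1.46 ± 0.14). Of 15 TIP60/p400 partner genes of Brd8, 3 rose and 5 fell, among them the AAA ATPase gene Ruvbl2 (-1.41 ± 0.09), and of 10 CBP/p300 coactivators and regulators tested (11 listed), 5 rose and 4 fell, led by the coactivator gene Ncoa1 (2.46 ± 0.07). With PFI-3 at DM 48h, 13.4% of all genes were higher and 14.0% lower. The same 4 lists had 2 higher and 0 lower, 1 and 0, 2 and 2, and 1 and 1, in that order. Their medians were -0.19, -0.57, -0.13 and 0.07 from GM to DM 48h (0.03 over all genes) and 0.07, 0.22, -0.02 and 0.002 with PFI-3 at DM 48h (0.001 over all genes). The single call in the MOZ/MORF and HBO1 list was Jade2 (1.07 ± 0.19, adjusted p = 0.00147). In GM the 4 lists had 0 and 0, 0 and 0, 0 and 1, and 0 and 1. At DM 24h they had 2 and 0, 0 and 0, 0 and 3, then 1 and 2. The shares of all genes called with PFI-3 were 11.6% in GM and 23.6% at DM 24h.

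The genes most alike to each member were found by Pearson correlation of log2 CPM over the 12 libraries, which share stage and treatment, among 10367 genes. The closest was Map1lc3a for Hexim1 (r = 0.99), Fam60a for Kat2a (0.99), Fam46a for Kat2b (0.99), Tet3 for Brd3 (0.98), Mapre2 for Brd2 (0.98), Map3k7 for Brd8 (0.97), Setd2 for Crebbp (0.97), Pak1 for Brpf1 (0.96) and Tmem67 for Ep300 (0.89). The 3 members with the widest FPKM range (Kat2b, Hexim1 and Kat2a) had the 3 highest values.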

How the data were processed

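RNA of 12 C2C12 libraries was analysed from 1 deposited table per library. The authors deposited an expected count, an FPKM value and a mean transcript length per gene, per the file headers. The submitters' processing notes name mm10, HISAT, StringTie, Bowtie, RSEM, Cufflinks and DESeq2, without roles. Groups and letters were read from the titles. Deposited expected counts (93.3% to 93.7% whole) were rounded, and a gene missing from a table was taken as 0. Genes were filtered with edgeR's filterByExpr (12545 of 16288 kept) and tested with edgeR 4.0.16 (R 4.3.3): TMM, quasi-likelihood test, 1 model of all 6 groups, Benjamini-Hochberg adjustment over all genes tested, threshold 0.05. The SE is the log2 fold change divided by the square root of F. Differences between stages were contrasts of the same model, and the average effect came from an additive model. Alternatives used DESeq2 1.42.0, limma 3.58.1 and pseudocounts of 1 and 0.1 on the authors' FPKM. The code was tested on simulated data. Sequences came from RefSeq tables. The members, the gene lists and the rule for naming genes (at most 4 per list, by smallest adjusted p among those called) were chosen with earlier results of these data known. The p-values of the 6-group model measure the spread between duplicates only. That spread was estimated per gene over all 6 groups, so the wider GM spread enters the DM tests. In the additive model, differences of the PFI-3 effect between stages also enter the spread. Genes named as most alike have a mean of at least 5 CPM.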

Additional observations from a re-analysis of the deposited data

Results flagged for a closer look

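For 2 of the genes, the test of the difference itself separated the effects of PFI-3 at the 2 DM stages. Exposure was longer at DM 48h, so stage and length of exposure cannot be told apart here. For Brd8 the effect was higher at DM 48h by 0.388 on the log2 scale (SE 0.098, adjusted p = 0.0234), with effects of -0.07 at DM 24h and 0.32 at DM 48h. It kept its call in 11 of 18 alternatives, with adjusted p between 0.000237 and 0.124. For Hexim1 the difference was -0.403 (SE 0.098, adjusted p = 0.019), with effects of 0.20 at DM 24h and -0.20 at DM 48h. It kept its call in 10 of 18 alternatives, with adjusted p between 1.68e-05 and 0.0982. Both directions held in all 18.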

How the results depend on the processing

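The calls of Brd3, Brd8, Crebbp, Kat2a, Kat2b and Hexim1 from GM to both DM stages held in all 14 alternatives of each comparison. The number of the 9 genes called with PFI-3 at DM 24h (1 in the main analysis) was 6 with only the libraries compared (44.7% of all genes called), 6 with the replicate block added to that fit (45.6%), 5 with limma voom and stage weights (43.8%), 2 with limma on FPKM at either pseudocount (24.0% and 22.2%), and 0 without any 1 of its 4 libraries (at most 11.7%). At DM 48h it was 2 with DESeq2 (20.6% of all genes) and 2 with a replicate block (27.5%) in place of 4, where the block lost Brd2 (adjusted p = 0.0526) and Hexim1 (0.0575), and 1 to 2 when a library was left out (15.6% to 16.7%). In GM it was 0 to 1 in place of 0 (9.43% to 21.9%). The change of the PFI-3 effect from DM 24h to DM 48h was called for 1 gene with limma on FPKM (13.6% and 11.0% of all genes), in place of 2. The average effect was called for 4 with limma on FPKM (27.2% and 26.6%), in place of 2. Leaving out certain libraries changed the number called in both of these comparisons and in the change from GM to DM 48h. Left-out libraries leave 1 sample in a group, whose spread is then taken from the other groups. Same-letter libraries deviated together in GM (r = 0.488) but not at DM 24h (0.018) or DM 48h (0.037), so the letters were not taken as pairs. Over all genes, 1456 were called with PFI-3 in GM, but 38 with only those 4 libraries, 922 with the replicate block added, 356 with limma voom and 2742 without GM DMSO library B. At DM 24h 2966 became 5603, 5715 and 5490 in the first 3 of these fits, and 1323 to 1471 without a library. At DM 48h 3438 became 5644, 6077 and 5494, and 1961 to 2092. The cause was not tested. The change of the effect from GM to DM 24h had 423 calls and 92 to 344 in those fits and 89 to 1002 without a library, that from GM to DM 48h 1824, 1033 to 1352, and 1018 to 2935, and that from DM 24h to DM 48h 1517, 3839 to 4203, and 794 to 861.

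Directions that turned belonged to small differences with no call. With PFI-3 in GM, leaving out a library gave -0.119 to 0.180 for Brd2, -0.040 to 0.058 for Crebbp and -0.191 to 0.024 for Kat2a, and FPKM gave 0.009 and 0.010 for Ep300 and 0.015 for Kat2a. At DM 24h Brpf1 was 0.024 and 0.025 on FPKM and -0.071 to 0.009 without a library. At DM 48h values without a library ran from -0.114 to 0.143 (Crebbp), -0.029 to 0.170 (Ep300) and -0.049 to 0.064 (Kat2a). In DMSO, values without a library turned for Ep300 (-0.005 to 0.086 at DM 24h and -0.142 to 0.056 at DM 48h against GM, and -0.178 to 0.020 from DM 24h to DM 48h) and Kat2b (-0.107 to 0.046 from DM 24h to DM 48h). Each group has 2 libraries, which limits the precision of all these values.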
